A study of Mus musculus with 29 samples.

Results

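The T cell receptor alpha segments TRAV7-3, TRAV7-4 and TRAV7-5 and their D and N copies were followed through the alpha chain (TRA) counts of brain and ovary metastases of a mouse melanoma with mutated Braf, grown as an experimental metastasis model. A count belonged to them when every segment in its V name was a TRAV7, TRAV7D or TRAV7N segment ending in 3, 4 or 5. That took in 10 of the 145 V names written for the alpha chain, 2183 of 21959 combinations of V, J and CDR3 with a resolved CDR3, and 24888 of 319742 TRA counts (7.78%). Of these 10 names, 6 were of a single segment and 4 joined the names of copies that had not been told apart, so single and joined names were summed within each copy group (TRAV7-3, TRAV7-4 and TRAV7-5, each with its copies). The 5 treatments were an anti-PD-L1 lead-in followed by trametinib and anti-PD-L1 (lead-in combination, day 3), trametinib with anti-PD-L1 (concurrent, day 3), trametinib (day 3), the lead-in by itself (day 0) and no treatment (day 0, vehicle in the titles). Trametinib inhibits the kinase MEK, and PD-L1 is the ligand of the checkpoint receptor PD-1 on T cells. The 19 brain samples were 4 of each treatment but 3 untreated, from 2 numbers per treatment, and the 10 ovary samples were 2 of each treatment from 1 number, each number being sampled in brain too. Neither the meaning of a number (an animal or otherwise) nor that of its parts is given in the labels. Parts were summed, and p-values below set a difference against the spread of numbers, which may be technical. The exception is an alternative fit with each part as its own library. The table holds only T cell receptor segments, so the labelled organ could not be checked against markers.

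An alpha chain is made when a V segment is joined to a J segment in the thymus. The V segment encodes the first and second antigen-contacting loops (CDR1 and CDR2), and the junction with J encodes the third, CDR3, which is the most variable. The alpha locus of the C57BL/6 mouse carries duplicated blocks of V segments, whose copies bear the letters D and N. In the order of the RefSeq annotation (GRCm38.p6, chromosome 14), the TRAV7 segments lie as 7-1, 7D-2, 7D-3, 7D-4, 7D-5, 7D-6, 7N-4, 7N-5, 7N-6, 7-2, 7-3, 7-4, 7-5 and 7-6. TRAV7-5 is thus nearest to the J cluster of the members, and TRAV7D-3 is farthest. TRAJ segments are numbered down towards the 3′ end, so a high TRAJ number lies nearer to the V segments.

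The CDR3 amino acid sequences below are those of member clonotypes with the highest mean share in ovary or in brain and of those found in the most numbers. They are shown because they set several of the levels below, and they come from the deposited table. The clonotype with the highest mean share in brain, TRAV7N-4 with TRAJ6, is described by its segments only. A clonotype is a copy group with a J segment and a CDR3. Each begins with the conserved cysteine that the V segment encodes and ends with a phenylalanine from the J segment.
TRAV7-3 copies with TRAJ48, highest in ovary: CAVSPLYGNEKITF
TRAV7-3 copies with TRAJ26, among the highest in ovary: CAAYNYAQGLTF
TRAV7-3 copies with TRAJ15, among the highest in ovary: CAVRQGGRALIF
TRAV7-3 copies with TRAJ15, among the highest in brain: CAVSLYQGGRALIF
TRAV7-3 copies with TRAJ22, among the highest in brain and shared: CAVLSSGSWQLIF
TRAV7-4 copies with TRAJ34, shared: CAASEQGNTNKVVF
TRAV7-3 copies with TRAJ9, shared: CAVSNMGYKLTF
TRAV7-3 copies with TRAJ9, shared: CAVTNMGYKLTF
TRAV7-3 copies with TRAJ9, shared: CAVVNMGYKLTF

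Depth differed widely between the organs. Ovary samples held 14088 to 51549 TRA counts and brain samples 230 to 9389. The smallest was part 1 of brain lead-in number 10, where 3 of 230 counts were members (1.30%, exact Clopper-Pearson 95% interval 0.270% to 3.76%), against 70 of 700 counts in its part 2 (interval 7.88% to 12.5%). These intervals cover counting error only. In a bulk library, fewer cells that carry a segment and less receptor RNA per cell cannot be told apart.

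Member copies took a moderate share of the alpha repertoire in both organs. The share of TRA counts ran from 3.11% to 11.4% in 5 ovary numbers (median 7.51%) and from 6.54% to 12.6% in 10 brain numbers (median 8.12%). In ovary, number 12 of the lead-in combination held 3.11%, number 1 (concurrent) 8.48%, number 13 (trametinib) 7.51%, number 10 (lead-in) 11.4% and number 3 (untreated) 6.89%. By sample these were 2.84% and 3.43%, 6.20% and 11.5%, 6.91% and 8.10%, 12.3% and 9.88%, and 6.62% and 7.36% in the same order, so the parts of number 1 lay farthest apart. The ovary of the lead-in combination was thus the lowest library and that of the lead-in the highest ovary one. The related TRAV7-2 copies held 41.6% of TRA counts in ovary number 12 and 7.24% to 28.8% in the other ovaries. Of the counts outside TRAV7-2, members held 5.32% in ovary number 12 and up to 13.1% in the ovaries, so it remained the lowest there. Counted as distinct clonotypes, members made up 7.52% to 10.2% of an ovary repertoire and 8.51% to 12.4% of a brain one. By that measure ovary number 12 was not the lowest: it held 7.54%, and number 1 held 7.52%.

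In brain, the lead-in combination had the lowest mean share of TRA counts and the least spread. Its members held 6.72% of TRA counts in number 12 and 6.54% in number 14, against 8.21% and 9.10% in the concurrent numbers 1 and 6. Trametinib numbers 8 and 13 held 12.6% and 9.54%, lead-in numbers 10 and 11 held 7.85% and 6.65%, and untreated numbers 3 and 7 held 11.1% and 8.03%. The 4 samples of the lead-in combination ran from 5.20% to 7.41%, those of the concurrent combination from 6.72% to 10.5% and those of trametinib from 9.15% to 14.2%. The 4 lead-in samples ran from 1.30% to 10% and the 3 untreated ones from 8.03% to 11.3%. The samples of the lead-in combination thus overlapped neither those of trametinib nor the untreated ones, and all other pairs of treatments overlapped. These samples come from 2 numbers per treatment, and the share of all copy groups that separate in this way was not counted. Depth differed too: samples held 5192 to 9389 TRA counts in the lead-in combination, 344 to 863 with trametinib and 363 to 635 untreated. The order of the treatment means was trametinib (11.1% ± 2.1, SD, n = 2 numbers), untreated (9.54% ± 2.13), concurrent (8.65% ± 0.63), lead-in (7.25% ± 0.85) and lead-in combination (6.63% ± 0.13). Neighbours in that order overlapped in their numbers except concurrent and lead-in, and those overlapped over single samples. Parts of a brain number differed by a median of 2.08 percentage points (highest 8.70, number 10), which is more than any step between neighbouring treatment means. The low rank of the lead-in combination did not hold by other measures. Outside TRAV7-2, members held 9.83% and 8.39% in its numbers 12 and 14, against 8.81% and 7.96% in lead-in numbers 10 and 11. TRAV7-2 copies held 31.7% and 22.1% of TRA counts in numbers 12 and 14. As a share of distinct clonotypes, the mean was lowest in the concurrent combination (8.92%), against 9.92% in the lead-in combination.

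**Figure D1:**
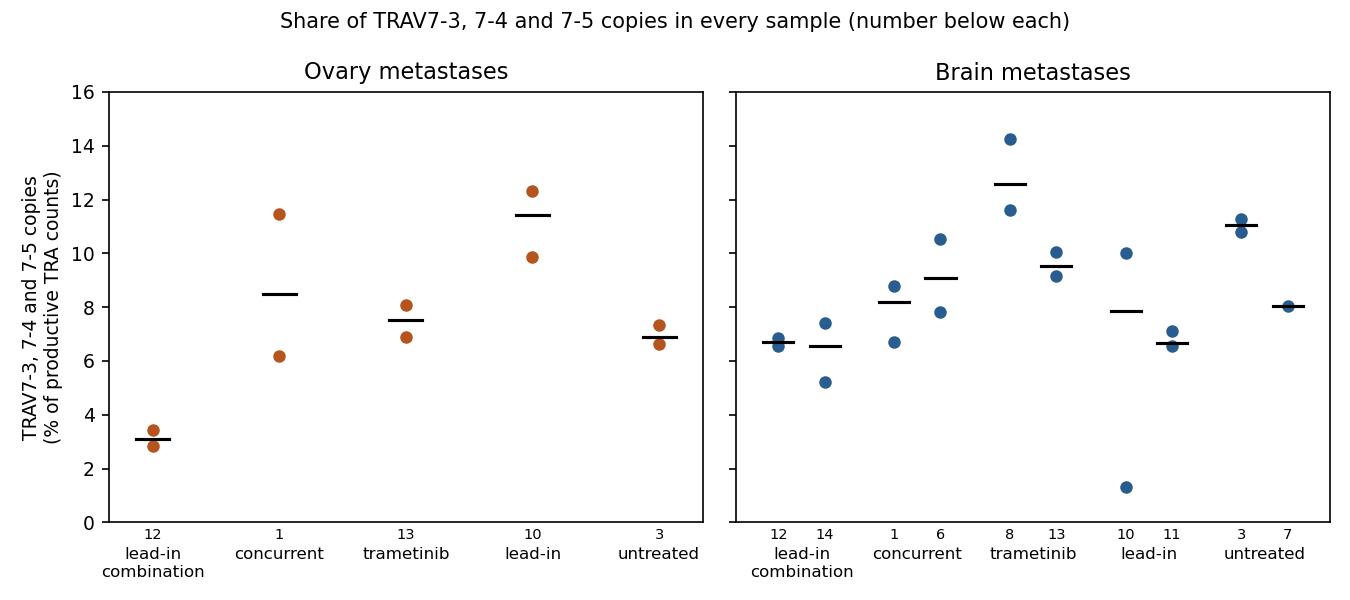
Share of TRAV7-3, 7-4 and 7-5 copies in productive TRA counts (vertical axis, percent) of every ovary and brain sample, by treatment and number. Points are samples, black dashes are numbers with their parts summed. Ovary number 12 lies at 3.11%, below all 10 brain numbers, and part 1 of brain number 10 lies at 1.30%.

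The 3 copy groups contributed unequally and not in step. In brain, TRAV7-4 copies averaged 3.40% ± 0.92, TRAV7-3 copies 3.18% ± 1.35 and TRAV7-5 copies 2.05% ± 0.92 of TRA counts (SD, n = 10 numbers). In ovary, TRAV7-3 copies led with 3.50% ± 2.31, before TRAV7-4 with 2.29% ± 0.97 and TRAV7-5 with 1.70% ± 0.77 (SD, n = 5). Their ranks by mean share among 81 copy groups were 10, 17 and 21 in ovary and 11, 9 and 17 in brain for TRAV7-3, 7-4 and 7-5. Over the 10 brain numbers the Spearman correlation was -0.22 between TRAV7-3 and TRAV7-4, 0.16 between TRAV7-3 and TRAV7-5, and 0.09 between TRAV7-4 and TRAV7-5, as a description of shares that come from the same libraries.

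Single numbers stood out in each copy group. TRAV7-3 copies held 6.003% in brain number 3 and 5.34% in number 8, but 1.94% to 2.84% in the other 8 brain numbers. TRAV7-4 copies held 5.59% in brain number 6, against 2.59% to 3.98% in the others. TRAV7-5 copies ran from 0.691% in brain number 6 to 3.35% in number 8.

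**Figure D2:**
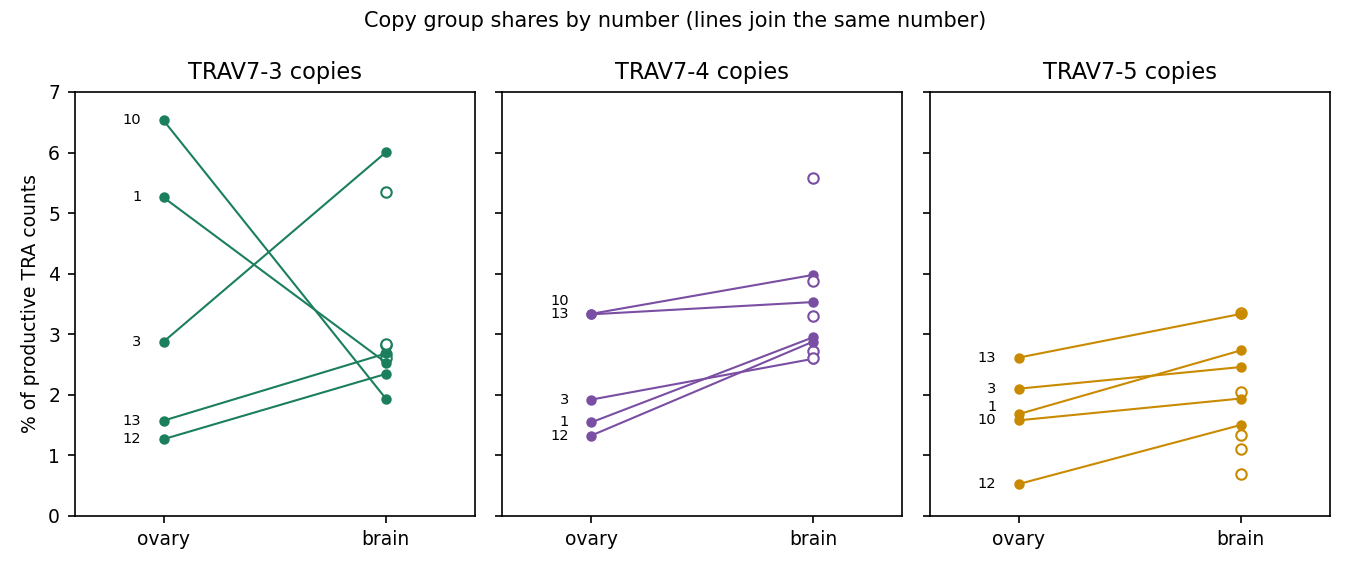
Shares of the 3 copy groups in TRA counts (vertical axis, percent) by number, in ovary and in brain. Filled points joined by lines are the 5 numbers sampled in both organs and open points are brain numbers without an ovary sample. TRAV7-4 and TRAV7-5 copies lie lower in the ovary than in the brain of all 5 numbers, while TRAV7-3 copies lie higher in the ovary of numbers 1 and 10 and lower in 3, 12 and 13. How often other copy groups lie on the same side in all 5 numbers was not counted.

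No difference between brain treatments passed the test for any of the 3 copy groups. Shares were compared over the whole table of both chains with edgeR's quasi-likelihood test, in the 69 copy groups that reached 10 counts in 2 or more libraries, and all 3 member groups passed that filter. Over the 5 treatments together, 0% of the 69 groups were called (0 at a Benjamini-Hochberg adjusted p under 0.05, with 3, or 4.35%, at an unadjusted p under 0.05), and DESeq2 called 0. The member groups had an edgeR adjusted p of 0.908 each.

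The first pair of brain treatments differs in whether a lead-in came before the combination. TRAV7-3 copies held 2.34% and 2.84% of TRA counts in the lead-in combination, against 2.53% and 2.82% in the concurrent combination (log2 difference -0.05 ± 0.54 SE, edgeR adjusted p = 0.982). TRAV7-4 copies held 2.88% and 2.61%, against 2.95% and 5.59% (-0.63 ± 0.49, adjusted p = 0.818). TRAV7-5 copies held 1.499% and 1.10%, against 2.73% and 0.691% (-0.41 ± 0.70, adjusted p = 0.965). The lead-in combination lay lower in TRAV7-4 copies than both concurrent numbers, but number 6 of the concurrent combination set most of that gap: without it the value was -0.10. The number of groups among the 69 that separated the 2 treatments in this way was not counted. TMM scaling gave 0.42, -0.14 and 0.0729 for TRAV7-3, 7-4 and 7-5, and it moved all 69 groups by a median of 0.46, against 0.47, 0.50 and 0.48 for the 3 member groups. In this comparison 0% of the 69 groups were called (3, or 4.35%, at an unadjusted p under 0.05, none of them a member group). The median log2 difference was -0.41 over the 3 member groups and -0.13 over all 69.

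Adding anti-PD-L1 to trametinib gave the largest difference in TRAV7-5 copies, which also missed the threshold. They held 2.73% and 0.691% of TRA counts in the concurrent combination, against 3.35% and 3.33% with trametinib (log2 difference -0.96 ± 0.71, edgeR adjusted p = 0.830), so both concurrent numbers lay below both trametinib numbers. The value was -2.27 without concurrent number 1 and -0.29 without concurrent number 6. The parts of trametinib number 8 were unlike, with 1.80% (11 of 611 counts) in part 1 and 6.10% (21 of 344) in part 2. Part 1 lay below both parts of concurrent number 1 (2.42% and 2.86%), so the treatments overlapped over single samples. How many of the 69 groups had both concurrent numbers on the same side of both trametinib numbers was not counted. TRAV7-3 copies differed by -0.57 ± 0.55 (adjusted p = 0.830) and TRAV7-4 copies by 0.20 ± 0.50 (adjusted p = 0.877). The TRAV7-3 value was -0.00304 without trametinib number 8 and -0.997 without trametinib number 13. Again 0% of 69 groups were called (3, or 4.35%, at an unadjusted p under 0.05, none of them members), and the median was -0.57 over the member groups and 0.08 over all groups.

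Against untreated brain samples, TRAV7-3 copies were lowest after the lead-in. They held 1.94% and 2.60% of TRA counts with the lead-in, against 6.003% and 2.68% in untreated numbers 3 and 7 (log2 difference -0.92 ± 0.56, edgeR adjusted p = 0.954). Without untreated number 3 the value was -0.22. TRAV7-4 and TRAV7-5 copies differed by 0.17 ± 0.52 and -0.49 ± 0.75 (adjusted p = 0.954 each), and 0% of 69 groups were called (1, or 1.45%, at an unadjusted p under 0.05). With trametinib, the differences from untreated samples were -0.13 ± 0.56 for TRAV7-3, 0.33 ± 0.52 for TRAV7-4 and 0.57 ± 0.74 for TRAV7-5 copies (adjusted p = 0.961, 0.916 and 0.916), and 0% were called (3, or 4.35%, unadjusted). Trametinib was given only at day 3, so it cannot be told apart from the day in that comparison, and both comparisons share the untreated samples. The related groups TRAV7-1, TRAV7-2 and TRAV7-6 had 0 of 3 called in each of these comparisons, with 1 of 3 (TRAV7-2) at an unadjusted p under 0.05 between the 2 combinations (1.04 ± 0.38, adjusted p = 0.646).

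**Figure D3:**
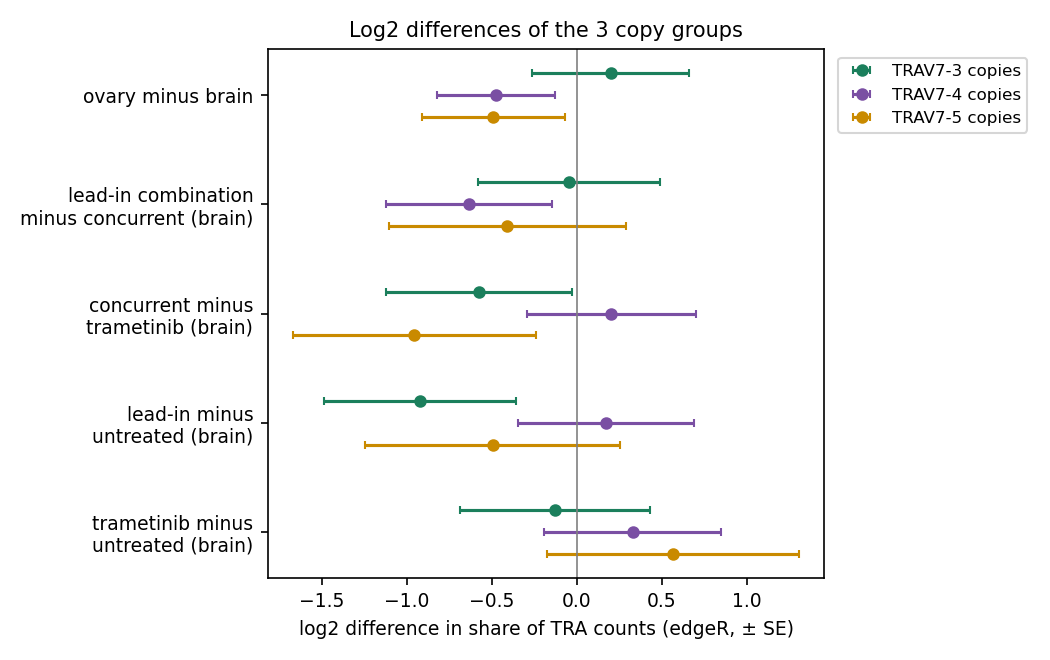
Log2 differences in the share of TRA counts (horizontal axis) of the 3 copy groups in the ovary against the brain and in 4 pairs of brain treatments, with standard errors from edgeR as bars. The 15 values lie between -0.96 and 0.57, and the edgeR adjusted p is 0.687 or higher for each.

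Between organs, TRAV7-4 and TRAV7-5 copies were lower in the ovary than in the brain of the same number in all 5 numbers, without passing the test. It was not counted how many of the 77 groups tested lay on the same side in all 5 numbers. The first values given are from the fit without pairing by number. TRAV7-4 copies held 1.32% (number 12), 1.54% (number 1), 3.33% (number 13), 3.33% (number 10) and 1.92% (number 3) of TRA counts in ovary, against 2.88%, 2.95%, 3.53%, 3.98% and 2.59% in brain (log2 difference -0.47 ± 0.35, edgeR adjusted p = 0.687). TRAV7-5 copies held 0.522% to 2.61% in ovary, against 1.499% to 3.33% in the brain of these numbers (-0.49 ± 0.42, adjusted p = 0.687). TRAV7-3 copies held 1.26% to 6.53% in ovary, against 1.94% to 6.003% in brain (0.20 ± 0.46, adjusted p = 0.870), and the organs overlapped in all 3 groups. Of 77 groups tested, 0% were called (9, or 11.7%, at an unadjusted p under 0.05, 0 of 3 members and 0 of 3 related TRAV7 groups among them). DESeq2 called 4 groups, each under a name that joins several copy groups and each lower in ovary, and none of the 3 member groups. The median log2 difference was -0.47 over the member groups and -0.07 over all 77. With the number as a block the values were -0.0290, -0.58 and -0.64 for TRAV7-3, 7-4 and 7-5 (edgeR adjusted p = 0.960, 0.320 and 0.320). With TMM scaling they were 0.55, -0.0460 and -0.0762, while the median shift over all 77 groups was 0.37. The direction for TRAV7-3 rested on the 2 ovaries in which it was high: it was -0.27 without number 10 and -0.06 without number 1.

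The members also differed between the organs in how they were named. Of member counts, 43.0% (number 12), 20.7% (number 1), 46.1% (number 13), 31.1% (number 10) and 30.4% (number 3) stood under a joined name in ovary, against 56.4%, 50.8%, 51.4%, 67.1% and 61.7% in brain. The organs did not overlap in these 5 numbers, and the mean was 34.2% ± 10.3 in ovary and 57.5% ± 7.0 in brain (SD, n = 5 each, difference -23.2 percentage points). With each combination of V name, J and CDR3 counted once the difference was -8.00 points (exact permutation p = 0.00794, adjusted p = 0.0397). A clonotype under several names counted there once under each name. For the counts, the exact two-sided permutation test gave p = 0.00794, the smallest that 5 against 5 allow, and an adjusted p of 0.0397 over 5 tests of single values. Paired by number, the exact sign-flip permutation test gave p = 0.0625, the smallest that 5 pairs allow, and adjusted p = 0.143, and the call does not hold there, nor with any number left out (exact permutation p = 0.0286, the smallest that 4 against 4 allow, adjusted p = 0.143). The other 5 brain numbers held 25.5% to 49.1%, so over all 10 brain numbers the organs overlap. Other alpha counts had joined names for 17.6% to 39.2% in ovary and 24.0% to 40.8% in the brain of the same numbers, and were lower in ovary in 5 of 5 numbers too. Depth moved with organ too, and its part in the naming was not tested.

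Some clonotypes were named differently in the organs of a number and others alike. Among CDR3 and J pairs found in both organs of a number, which were 10 to 41 pairs, joined names held 42.0%, 13.1%, 31.0%, 80.4% and 53.3% of the ovary counts in numbers 12, 1, 13, 10 and 3, against 62.3%, 47.8%, 53.8%, 86.4% and 69.8% of the brain counts. The share was lower in ovary in 5 of 5 numbers, with a mean difference of -20.1 percentage points that did not pass unpaired (exact permutation p = 0.167, adjusted p = 0.234). This restriction was chosen after the data had been seen. The clearest case was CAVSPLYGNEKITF with TRAJ48 in number 1. In ovary it had 1018 counts as TRAV7-3, 748 as TRAV7D-3 and 15 under TRAV7-3V7D-3, against 43 counts in brain, all under TRAV7-3V7D-3. By contrast, in number 12 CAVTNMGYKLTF stood under TRAV7D-3 for all 202 counts in ovary and all 44 in brain. Over all libraries, 206 of 1956 clonotypes (10.5%) stood under 2 or more names of their copy group. Within a library, CDR3 and J pairs under 2 or more member names, of the same copy group or not, held 3.21% to 67.8% of member counts in ovary (median 33.1%) and 0% to 17.2% in brain (median 8.69%).

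**Figure D4:**
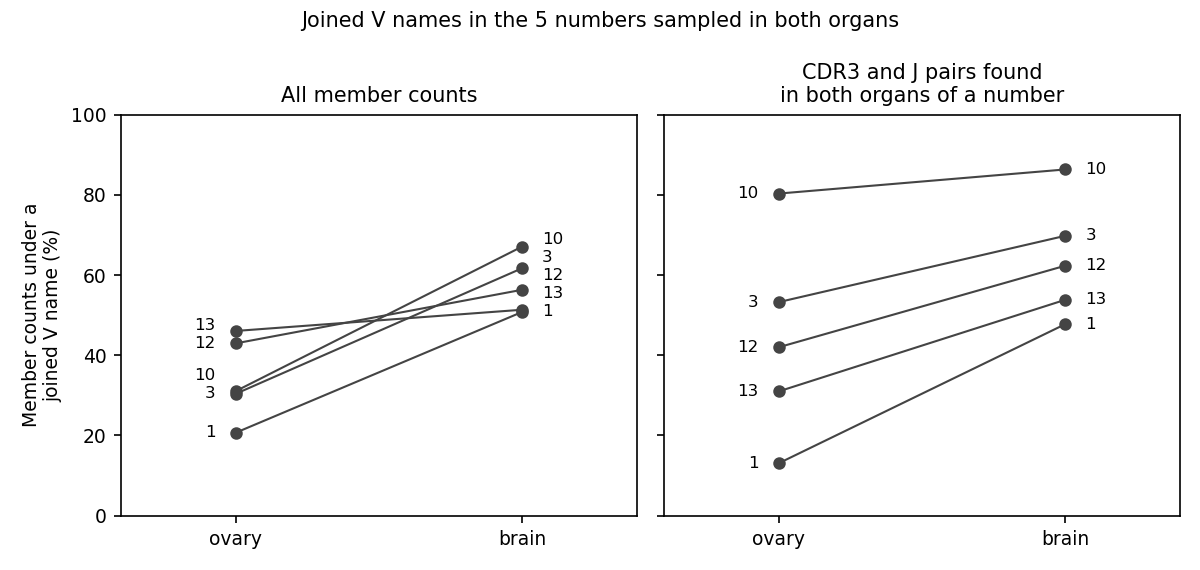
Percent of member counts under a joined V name (vertical axis) in ovary and brain of the 5 numbers sampled in both organs, for all member counts and for CDR3 and J pairs found in both organs of a number. Lines join a number, and each of the 10 lines is lower at its ovary end.

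Within copy groups, the copies were told apart to different extents. TRAV7-4 and TRAV7D-4 never stood alone and shared the name TRAV7-4V7D-4, with 5470 counts, while TRAV7N-4 alone had 1433 and the name of all 3 had 902. Within the TRAV7-4 group that 3-way name held 7.78% to 12.99% of counts in ovary and 16.5% to 45.9% in the brain of the same numbers. TRAV7D-3 was the most abundant single name, with 8379 counts (33.7% of member counts), against 1651 for TRAV7-3 and 1906 for both joined. TRAV7-5 had 3423 counts, TRAV7N-5 1439, their relative TRAV7D-5 alone 1, and TRAV7-5V7D-5 284. With names tested as written, which could not be done for TRAV7D-5, no member name passed between organs, and the lowest adjusted p was that of TRAV7-4V7D-4V7N-4 (log2 difference -2.25 ± 0.60, edgeR adjusted p = 0.0917).

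Expanded clonotypes set several of the levels above. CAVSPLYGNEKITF held 3.88% of TRA counts in ovary number 1 and 0.720% in brain number 1, and was found in no other number. It stood out for its size in ovary, where it made up 73.7% of TRAV7-3 counts, whose share was 5.26% of TRA counts, or 1.44% once it was left out. In the lead-in ovary of number 10, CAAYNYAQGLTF held 2.11% and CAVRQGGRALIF 1.77%, and both were listed at 0 in brain number 10 as member clonotypes, where a count of 0 of 930 allows up to 0.323%, although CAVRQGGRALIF had 1 count there under TRAV7D-2V7D-3, a name outside the rule. The TRAV7N-4 clonotype with TRAJ6 held 3.15% in brain number 6, with 114 counts, and was found in no other number under a TRAV7-4 name. It made up 56.4% of the TRAV7-4 counts there, and leaving it out lowered the group's share to 2.51%. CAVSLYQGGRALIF held 2.18% of TRA counts in brain number 3 (16 counts, all under TRAV7-3V7D-3) and 0.0759% in the ovary of that number (28 counts under the joined name and 17 as TRAV7-3). The expanded clonotypes thus differed between numbers. Other high shares fell less without the largest clonotype of the group. TRAV7-3 copies went from 5.34% to 4.24% in brain number 8, from 6.003% to 3.91% in brain number 3 and from 6.53% to 4.51% in ovary number 10.

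Most member clonotypes were private to a number. Of 1956 clonotypes, 1823 occurred in 1 number, 106 in 2 and 27 in 3 or more. Shared clonotypes were 6.80% of members and 8.02% of other alpha clonotypes, but they held 13.6% of member counts and 37.8% of other alpha counts. Within a number, 39 of 214 brain member clonotypes (18.2%) in number 12, 34 of 119 (28.6%) in number 1, 25 of 47 (53.2%) in number 13, 14 of 29 (48.3%) in number 10 and 10 of 22 (45.5%) in number 3 were also found in the ovary of that number. The share over other alpha clonotypes was 24.0%, 28.6%, 40.3%, 39.1% and 45.5% in the same order of numbers, so members lay below it in number 12, above it in numbers 13 and 10 and level with it in numbers 1 and 3. That difference was not tested. In the ovaries of other numbers at most 17 of those of number 12 and at most 5 of those of any other number were found. Thus in every number more brain clonotypes recurred in its own ovary than in any other ovary.

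TRAV7-3 copies joined to TRAJ9 supplied 3 of the 5 most widely shared clonotypes. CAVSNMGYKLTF was found in 6 numbers, the most of any member, and held at most 0.327% of TRA counts, in brain number 13. It had 59 counts there and elsewhere as TRAV7-3 copies, and the same CDR3 and J had 25 under V names outside TRAV7-3, such as TRAV9N-3. In ovaries 12 and 13 it stood only under such other names. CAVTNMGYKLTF was found in 4 numbers and held 0.597% in brain number 14 and 0.241% in brain number 12 of the lead-in combination, with 0.395% in the ovary of number 12. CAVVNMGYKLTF was found in 4 numbers too, in ovaries 12, 1, 13 and 3 and in brain number 12, with 0.137% in ovary 12 as its highest share. The 3 sequences differ only in the residue before NMGYKLTF. A search for that form (CAV, any residue, NMGYKLTF) was made after these had been seen. It found 9 clonotypes among 43 of TRAV7-3 with TRAJ9, 11 among 75 of all members and 11 among 567 of non-member segments with TRAJ9. The form begins with CAV, which opened 75.3% of TRAV7-3 clonotypes, while CAA opened 87.3% of TRAV7-2 ones. The contrast was thus partly set by the form and was not tested. The 9 clonotypes of TRAV7-3 held 772 counts and were found in all 10 numbers. They made up 42.9% of TRAV7-3 counts in ovary 12 and 0.378% in ovary 10. Among the other shared clonotypes, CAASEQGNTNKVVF of TRAV7-4 was found in 5 numbers with 0.338% in ovary 10 as its highest share, and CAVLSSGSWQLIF of TRAV7-3 in 5 numbers with 1.15% in brain number 8.

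The copy groups differed in the start of the CDR3, which the end of the V segment encodes. CAV opened 75.3% of 631 TRAV7-3 clonotypes and 84.7% of 529 TRAV7-5 clonotypes, whereas CAA opened 84.0% of 796 TRAV7-4 clonotypes. Within TRAV7-4 the V names were unlike each other: TRAV7-4V7D-4 had CAA in 95.6% and CAV in 0.773% of 388 clonotypes. TRAV7N-4 had CAA in 46.9% and CAV in 52.2% of 113, and the name of all 3 copies had CAA in 85.5% and CAV in 8.27% of 387. Whether every chain named TRAV7N-4 carried that segment was not tested. In ovary the CAV share of TRAV7N-4 ran from 35.7% to 66.7% over the 5 numbers, against 0% to 1.85% for TRAV7-4V7D-4. The expanded TRAV7N-4 clonotype of brain number 6 is one of these CAV chains.

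CDR3 length followed the copy group. Mean lengths were 13.08 residues in TRAV7-3, 14.02 in TRAV7-4 and 13.54 in TRAV7-5 clonotypes (SD 1.27, 1.35 and 1.25). TRAV7-4 was longer than TRAV7-3 in 5 of 5 ovary and 10 of 10 brain numbers, and TRAV7-5 lay above TRAV7-3 in 5 of 5 and 9 of 10. As a whole, members differed in length from other alpha clonotypes by less than the spread between numbers in brain and did not pass the test in either organ: 13.56 ± 0.10 residues in members against 13.64 ± 0.03 in other alpha clonotypes in ovary (n = 5, exact two-sided sign-flip permutation p = 0.188, adjusted p = 0.234), and 13.58 ± 0.18 against 13.53 ± 0.09 in brain (n = 10, exact p = 0.521, adjusted p = 0.521). Set against the other TRAV7 groups only (7-1, 7-2 and 7-6), members were longer by 0.366 residues in brain, in 10 of 10 numbers (exact sign-flip permutation p = 0.00195, the smallest it can give, adjusted p = 0.00977), and by 0.225 in ovary (5 of 5 numbers, exact p = 0.0625, adjusted p = 0.104).

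Mean TRAJ numbers of members and other alpha segments did not differ past the threshold, and they varied among the copies. Member clonotypes had a mean TRAJ number of 27.3 ± 1.1 against 29.3 ± 0.3 for other alpha clonotypes in ovary, lower in 5 of 5 numbers by 1.93 on average (difference -1.93, exact two-sided sign-flip permutation p = 0.0625, the smallest that 5 numbers allow, adjusted p = 0.143). In brain it was 27.8 ± 2.2 against 29.2 ± 0.4, higher in 3 of 10 numbers (difference -1.41, exact p = 0.0859, adjusted p = 0.143), and neither passed. Over all clonotypes the mean was 25.1 in TRAV7-3, 27.5 in TRAV7-4 and 29.6 in TRAV7-5. TRAV7-5, the member nearest to the J cluster, had a mean of 31.8 over its clonotypes, against 23.6 for its distal copy TRAV7N-5 while TRAV7-3, which lies beside TRAV7-4 and TRAV7-5, had 25.9 and the distal TRAV7D-3 had 24.6. TRAV7-5 lay above TRAV7N-5 in 5 of 5 ovary numbers (28.9 to 31.8 against 16.7 to 26.3) and in 10 of 10 brain numbers, only 4 of which had at least 5 clonotypes of both. The copies thus did not follow the order of the locus throughout, and the contrast of TRAV7-5 with TRAV7N-5 was seen in the data first and was not tested.

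**Figure D5:**
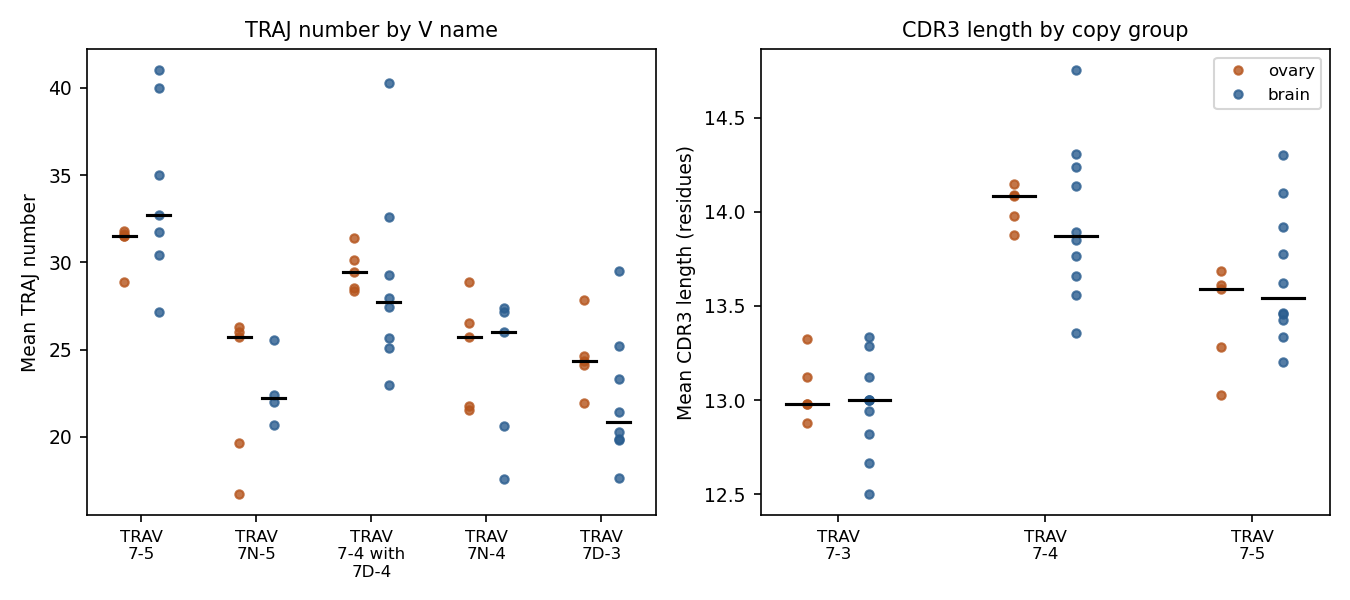
Mean TRAJ number by V name (left, means over at least 5 clonotypes) and mean CDR3 length in residues by copy group (right), with a point per number and the median over numbers as a black dash, for ovary and brain. TRAV7-5 lies above TRAV7N-5 in every ovary number, and TRAV7-4 above TRAV7-3 in length in every number of both organs.

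The J segments used most were similar to those of the rest of the alpha chain, with exceptions in TRAV7-3. TRAJ31 was the most used by members (136 of 1956 clonotypes, 6.95%, against 5.07% of other alpha clonotypes). In TRAV7-3, TRAJ15 and TRAJ9 were used by more than the other alpha share, which was not tested: TRAJ15 was used by 44 of 631 clonotypes (6.97%, against 3.09% of other alpha clonotypes) and TRAJ9 by 43 (6.81%, against 2.97%). These are the segments of the ovary clonotype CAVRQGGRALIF and of the shared NMGYKLTF chains.

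The share of members together was most like that of TRAV11, TRAV8-1 and TRAV13-2 across the 10 brain numbers, with Spearman correlations of 0.68, 0.64 and 0.58. These shares come from the same libraries and add up to the same total, so the values are a description. In the 5 ovary numbers, too few for such a measure, the correlation with each of the 3 was below 0. TRAV11 is the segment of invariant natural killer T cells and held 0.538% to 9.41% of TRA counts in brain.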

How the data were processed

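Receptor libraries were made from total RNA with a QIAseq kit, per the labels' protocols. The deposited table holds whole-number counts per V name, J name and CDR3 amino acid sequence, with a column per sample. The sources used here do not say if reads or molecules were counted, nor name an aligner or clonotype caller. Reads that are PCR copies are not independent molecules. The submitters' processing notes name the human build GRCh38 although the samples are mouse, and no coordinates are printed. Segment order came from RefSeq (GRCm38.p6). Left out were 43 alpha combinations with an unresolved residue (46 counts, 2 combinations of members). Identical sample columns were looked for, and 0 were found.

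The members and lists were chosen with earlier results of these data known. Named clonotypes were the 3 of highest mean share in each organ and the 5 found in most numbers (ties by counts), and the 3 copy groups most like the members by Spearman correlation. Copy groups drop the letters D and N of a V name. Parts of a number were summed. Counts were tested with edgeR 4.0.16 in R 4.3.3 (quasi-likelihood test, with the log of each chain's total as offset, at least 10 counts in at least 2 libraries, Benjamini-Hochberg over the table, threshold 0.05), with DESeq2 1.42.0 as an alternative, after tests on simulated data. The lowest and highest alpha totals per library were 28528 and 80947 in ovary and 635 and 18282 in brain. Single values used exact permutation tests in Python 3.11.15, two-sided, adjusted over 5 tests. A distinct clonotype counted once in CDR3 length and TRAJ number. Alternatives were another normalization, no filter, names as written, single parts, the number as a block and leaving out each number. Further alternatives counted each combination of V name, J and CDR3 once, or left out the largest such combination of each copy group in each library.

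Numbers were taken to pair the organs, and this was looked at by correlating deviations of shares from the organ means across copy groups. Same-numbered organs correlated at 0.218 to 0.852, all above 0.1, and different numbers at -0.721 to 0.501, so the ranges overlapped. The lowest value of a same number was that of number 3 (0.218). Only brain numbers with an ovary were compared, and each of these had a treatment of its own. These correlations therefore cannot tell pairing by number apart from a shared treatment. The other brain number of each treatment was not set against the ovaries.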

Additional observations from a re-analysis of the deposited data

Results flagged for a closer look

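Part 1 of brain number 10 (lead-in) stood apart from the other lead-in samples in TRAV7-3 copies, with 0 of 230 counts (0%, which allows up to 1.30%) against 2.57% in part 2 of that number and 2.55% and 2.86% in the parts of number 11. It was the only outlying value in 16 tests of brain treatments with 4 samples, and chance flags about 1 in 20 such groups.

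Names that join a member with a segment outside the rule were not counted as members. They held 106 counts in 85 clonotypes, 61 of them in ovary and 45 in brain. TRAV7D-2V7D-3 alone held 99 counts in 79 clonotypes, 58 in ovary and 41 in brain, and DESeq2 called that group lower in ovary (log2 difference -2.71, adjusted p = 0.0384), while edgeR called none.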

How the results depend on the processing

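Over 240 alternative values of the 15 log2 differences of copy groups, no adjusted p was below 0.320. The replicate block, with the number as a paired term in edgeR, gave -0.0290, -0.58 and -0.64 for TRAV7-3, 7-4 and 7-5 between organs (adjusted p = 0.960, 0.320 and 0.320) and 0 calls in all, and it turned the sign for TRAV7-3. In the sign-flip form of the replicate block the joined-name difference was -23.2 points (adjusted p = 0.143). With each combination of V name, J and CDR3 once it was -8.00 (exact permutation, adjusted p = 0.0397), and with matched clonotypes -20.1. With each number left out it ran from -27.7 to -20.0 (exact permutation, adjusted p = 0.143 each). Calls over the 5 treatments became 2 with no filter and 2 with single parts, those of the lead-in combination against the concurrent one 2 and 1, and those between organs 4 with DESeq2. Those of the concurrent combination against trametinib ran from 0 to 1 with a number left out (1 without number 10 and 1 without number 11). No call was of a member. The fit of single parts took the parts of a number as replicates, so its calls do not rest on the spread of numbers. Against the concurrent combination, the lead-in combination gave 0.42 (TRAV7-3) and 0.0729 (TRAV7-5) with TMM factors, which moved all groups by a median of 0.46. With each combination of V name, J and CDR3 counted once it gave 0.21 (TRAV7-3) and 0.57 (TRAV7-5). Without the largest such combination of each copy group in each library it gave 0.21 (TRAV7-3) and 0.15 (TRAV7-4). All these differences were of opposite sign to the values reported. A clonotype under several V names was several combinations in both settings, so the rest of it stayed when the largest was left out. With a number left out, TRAV7-3 ran from -0.19 to 0.0845 (positive without 6 or 12) and TRAV7-5 from -1.07 to 0.91 (positive without 1). TRAV7-4 in the concurrent combination against trametinib was -0.29 without the largest combinations of V name, J and CDR3. With a number left out it ran from -0.33 (without 6) to 0.59. TRAV7-4 after the lead-in was -0.0530 with each such combination counted once and ran from -0.11 (without 10) to 0.43. TRAV7-3 with trametinib against untreated ran from -0.70 to 0.57 (positive without 3 or 13), and TRAV7-3 in ovary against brain from -0.27 (without 10) to 0.62 (negative without 1 too). The cause was not tested. CDR3 length in brain was -0.00632 residues with counts as weights and -0.0889 with clonotypes of 2 or more counts. Against the other TRAV7 groups only, length differed by 0.366 in brain and 0.225 in ovary, and TRAJ number by 1.58 in brain and 1.27 in ovary, opposite in sign to the comparison with all alpha segments for all but the first. TRAJ number in ovary was 0.0571 with counts as weights. The settings chosen after seeing the data (matched clonotypes, the CDR3 form, the smallest brain library left out) changed no other sign or call. Depth limits brain libraries most, where a number holds as few as 51 member counts.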
